A study of Mus musculus with 40 samples.

Results

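Ribosome biogenesis genes encode the machinery that makes ribosomes. RNA polymerase I transcribes the ribosomal RNA precursor in the nucleolus, small nucleolar ribonucleoproteins (snoRNPs) modify and help cleave it, and assembly factors build the small and the large subunit around it before both leave the nucleus. T cells that are activated through their antigen receptor enlarge their nucleoli and make ribosomes before they divide, and many of these genes are known targets of the transcription factor Myc, so their RNA is often read as a measure of cell growth.

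A list of 50 such genes was examined in mouse CD4 T cells. It holds 6 genes of RNA polymerase I transcription, 7 of snoRNPs, 6 nucleolar chaperones and regulators, 15 genes of small subunit assembly and 16 of large subunit assembly. For each gene the probe set annotated to no other gene and brightest on average over its platform's arrays was used. This gave 48 of the 50 genes among 18194 genes in an experiment on sorted T cells and 46 among 17097 genes in an experiment with a ligand, 45 of them in both. Npm3 was unmeasured in both experiments, Mrto4 in the sorted cells, and Gnl3, Mybbp1a and Tsr1 in the ligand experiment. All values are log2 signals of Affymetrix arrays, and because probe sets differ in brightness, signals of different genes do not rank their RNA amounts.

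The ligand experiment has 32 arrays of Treg, the regulatory CD4 T cells that depend on the transcription factor Foxp3, sorted from spleen and lymph nodes of C57Bl/6 mice as CD4+ CD45RBlo cells with a Foxp3-YFP reporter. All of these mice carry Foxp3-YFPiCre, a Cre recombinase made together with YFP under control of Foxp3. In the mice labelled NRP KO (Nrp fl/fl x Foxp3-YFP-iCre) Cre acts on floxed alleles of Nrp1, the gene for the receptor neuropilin-1, and in those labelled WT it has no such target. Every culture received plate-bound anti-CD3 at 1 µg/mL, dissolved anti-CD28 at 2 µg/mL and IL-2 at 100 U/mL, together with immobilised Sema4a-Ig or mouse IgG1 at 10 µg/mL. There were 8 arrays each of NRP KO Treg with Sema4a-Ig, NRP KO Treg with IgG1, WT Treg with Sema4a-Ig and WT Treg with IgG1. They form 16 pairs of a Sema4a-Ig and an IgG1 array with neighbouring codes in their titles. At every probe set the deposited mean of a pair was the same in all pairs (largest spread 6e-05), so differences in level between the genotypes, Nrp1 itself included, had been removed and cannot be read. Only the Sema4a-Ig minus IgG1 difference within each pair was analysed. The array signals of the 2 treatments mirror each other around that mean, so their ranges restate the pair differences and whether they overlap is no separate result.

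The sorted cell experiment has 8 arrays from mice with the genotype label Foxp3GFP: 3 of activated Treg (CD4+ CD45RBlow GFP+, stimulated with anti-CD3/CD28), 3 of resting Treg (same gate, no stimulation) and 2 of conventional T cells (CD4+ CD45RBhi GFP-, no stimulation), each after 48 h of culture. There was no array of activated conventional T cells. Bone marrow is the labelled tissue of origin. Whether replicates are different mice or cultures is not labelled for either experiment, so the spread behind each p-value may be technical. Foxp3 and Ctla4 separated the Treg arrays (10.3 or higher) from the conventional arrays (6.78 or lower). On the ligand platform the Foxp3 probe set averaged 3.48 in WT Treg with Sema4a-Ig and 3.61 with IgG1, not above the highest of 23 nonspecific control probe sets (3.95), while Ctla4, Ikzf2, Il2ra and Tnfrsf18 averaged 10.2 or higher in the same arrays. One array, WT with Sema4a-Ig replicate 2, is WT by its title and knockout by its genotype label, and was kept with WT.

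Sema4a-Ig, a fusion protein of the ligand semaphorin-4a, was compared with IgG1 to ask what it does to Treg during stimulation. In WT Treg the ribosome biogenesis genes were lower with Sema4a-Ig. Of 46 measured genes, 18 fell and 0 rose in limma's test (adjusted p under 0.05 over all 17097 genes), where 2.88% of all genes fell, 2.91% rose and 5.79% passed in either direction. All 46 mean differences were negative, against 53.9% over all genes, and 42 of the 46 had an unadjusted p under 0.05, against 3601 of all genes (21.1%). The median difference was -0.33 on the log2 scale, a median change of -20.7%, against -0.01 over all genes. In 21 of the 46 genes the Sema4a-Ig array was the lower in 8 of 8 WT pairs, which held for 4.36% of all genes, and in 0 it was the higher in all pairs (3.03% of all genes). The array signal is relative to the other RNAs of the sample, so fewer cells that make an RNA and less of it per cell cannot be told apart.

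Every step of ribosome production was represented among the genes that fell: 1 of 6 RNA polymerase I genes, 3 of 7 snoRNP genes, 1 of 3 nucleolar chaperones and regulators, 6 of 14 small subunit genes and 7 of 16 large subunit genes. The median difference was -0.27 for RNA polymerase I, -0.32 for snoRNP, -0.16 for nucleolar, -0.31 for small subunit and -0.37 for large subunit genes.

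**Figure D1:**
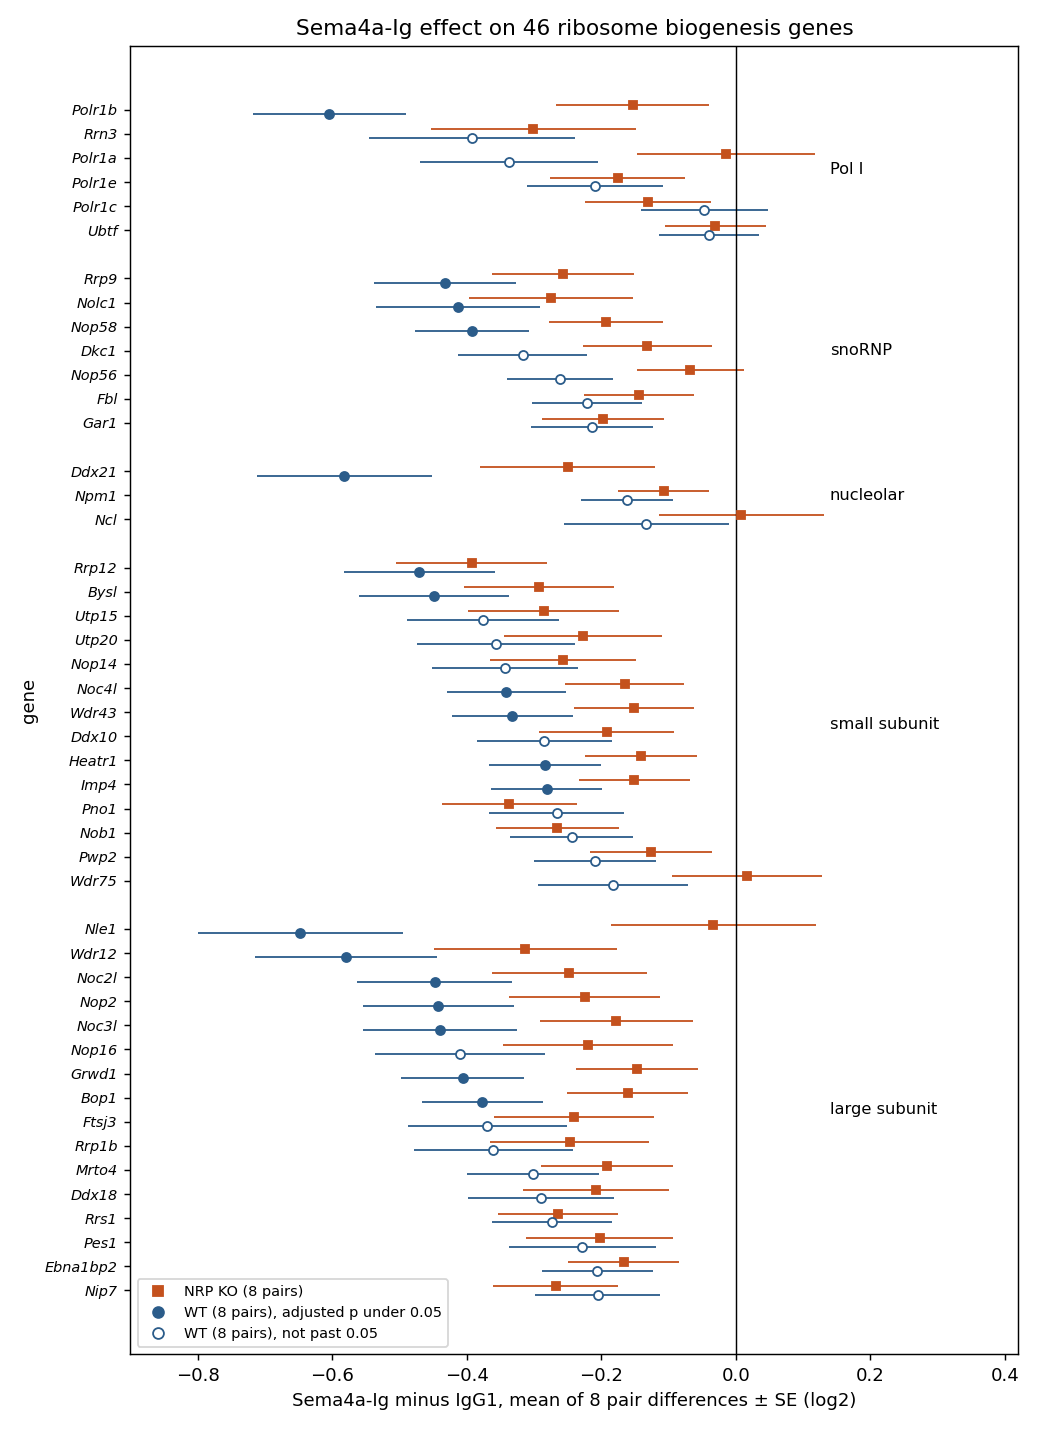
Mean Sema4a-Ig minus IgG1 difference (log2, x axis) of the 46 measured genes, grouped by role, in NRP KO Treg (squares) and WT Treg (circles, filled where the adjusted p was under 0.05). Bars are standard errors from limma over 8 pairs per genotype. All 46 WT means and 44 of 46 NRP KO means lie below 0.

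Among the RNA polymerase I genes, Polr1b, which encodes a core subunit of the enzyme, was the one that fell in WT Treg. Its lowest, median and highest log2 signals were 5.93, 6.16 and 6.33 in the 8 Sema4a-Ig arrays, against 6.58, 6.75 and 6.98 in the 8 IgG1 arrays. The Sema4a-Ig array was the lower in 8 of 8 pairs, with pair differences from -1.05 to -0.25. The mean difference was -0.60 ± 0.11 (SE), or 65.8% of the IgG1 level (limma, adjusted p = 0.00434). Polr1c, a subunit shared with RNA polymerase III, differed by -0.05 ± 0.09, and Ubtf, which binds the ribosomal RNA gene promoter, by -0.04, neither past the threshold.

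Of the snoRNP genes, Rrp9 (a protein of the U3 snoRNP), Nolc1 (a nucleolar chaperone of snoRNPs) and Nop58 (a core protein of the box C/D snoRNPs, which guide methylation) fell in WT Treg. Rrp9 had 6.56, 6.83 and 6.94 (lowest, median and highest) with Sema4a-Ig, against 7.11, 7.23 and 7.50 with IgG1. All 8 pairs were lower, and the mean difference was -0.43 ± 0.11 (limma, adjusted p = 0.0201). Nolc1 fell by 0.41 and was lower in 6 of 8 pairs, and Nop58 fell by 0.39 and was lower in 7 of 8. Fbl, the methyltransferase of the box C/D particles and the brightest of these genes in the sorted cells, differed by -0.22 ± 0.08 and did not pass (limma, adjusted p = 0.113).

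Ddx21, a nucleolar RNA helicase, was the 1 of the 3 measured nucleolar chaperones and regulators that fell. Its signals were 8.51, 9.01 and 9.20 in WT Treg with Sema4a-Ig, against 9.25, 9.44 and 9.94 with IgG1. All 8 pairs were lower, by 0.06 to 1.42, with a mean of -0.58 ± 0.13 (limma, adjusted p = 0.0123). Npm1 (nucleophosmin), an abundant chaperone of ribosome assembly, differed by -0.16 ± 0.07 (adjusted p = 0.168). Ncl (nucleolin) averaged 4.48 on this platform, close to the median of all genes (4.55) and above the highest control probe set (3.95). It had 11.8 in the sorted cells, so its difference of -0.13 describes a dim probe set.

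Of the small subunit genes, Rrp12, Bysl, Noc4l, Wdr43, Heatr1 and Imp4 fell. Rrp12, which in yeast acts in maturation and export of both subunits, had 6.20, 6.55 and 6.77 in WT Treg with Sema4a-Ig, against 6.82, 7.04 and 7.39 with IgG1. All 8 pairs were lower, and the mean difference was -0.47 ± 0.11 (limma, adjusted p = 0.0181). Bysl (bystin), a factor of the pre-small subunit, fell by 0.45 ± 0.11 in 8 of 8 pairs. Noc4l, Wdr43, Heatr1 and Imp4, all parts of the processome that cleaves the small subunit RNA, fell by 0.28 to 0.34. Wdr75, another processome gene, differed by -0.18 and had 2 of 8 pairs above 0. Its probe set was dim, with a mean of 5.08, and a different probe set had 9.03 in the sorted cells.

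The large subunit genes held the largest mean decrease in WT Treg. Nle1, a WD-repeat protein whose yeast counterpart is needed for late maturation of the pre-large subunit, had 4.47, 4.95 and 5.02 with Sema4a-Ig, against 5.30, 5.37 and 5.85 with IgG1. Each pair was lower, by 0.29 to 1.39, and the mean difference was -0.65 ± 0.15, or 63.9% of the IgG1 level (limma, adjusted p = 0.0173). This probe set was among the dimmer of the list, with a mean of 5.16 over all arrays. The median of all genes was 4.55, and the highest control probe set averaged 3.95. Wdr12, which works with Pes1 and Bop1 in processing the large subunit RNA, had 7.51, 7.80 and 8.04 with Sema4a-Ig, against 8.11, 8.35 and 8.64 with IgG1. It fell by 0.58 ± 0.14 in 8 of 8 pairs (limma, adjusted p = 0.0164). Its partner Bop1 fell by 0.38, while the third partner, Pes1, differed by -0.23 without passing. Noc2l and Noc3l (pre-ribosome transport factors in yeast), Nop2 (a methyltransferase of the large subunit RNA) and Grwd1 (in yeast a chaperone of a ribosomal protein) fell by 0.41 to 0.45. Rrs1, a factor of large subunit assembly, differed by -0.27 ± 0.09 in 8 of 8 pairs and did not pass (limma, adjusted p = 0.0718).

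Myc itself showed no difference past the threshold in WT Treg. Its signals were 10.1, 10.2 and 10.3 with Sema4a-Ig and 10.2, 10.3 and 10.4 with IgG1, a mean of -0.08 ± 0.07 with 5 of 8 pairs lower (limma, adjusted p = 0.585). Among 14 growth regulators measured, Mxd4, which competes with Myc for its partner Max, rose by 0.55 ± 0.10, and the polyamine enzyme Odc1 (-0.41) and the amino acid transporter Slc7a5 (-0.40) fell.

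Myc and Max bind the letters CACGTG, an E-box that reads the same on both strands. RefSeq promoter windows (build GRCm38.p6, 250 bases before to 50 bases after a transcript start) were at hand for 45 of the 50 genes, and 11 of these (24.4%) held CACGTG, against 8.09% of the 27025 genes in that table and 10.2% of the 13514 of them measured in the ligand experiment. The excess lay in the first 50 transcribed bases, with 8 of 45 genes (17.8%) against 1.28% of the table. In the 250 bases upstream the shares were 6.67% and 6.86%. The 30-base stretches around the motif are shown for the 5 genes that hold it and fell with Sema4a-Ig in WT Treg, out of 16 such genes with a window, written 5′ to 3′ on the gene's strand with the motif in capitals.
Grwd1, chr7:45830740-45830769, minus strand: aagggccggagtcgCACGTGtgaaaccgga
Nle1, chr11:82908355-82908384, minus strand: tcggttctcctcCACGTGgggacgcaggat
Nop2, chr6:125131811-125131840, plus strand: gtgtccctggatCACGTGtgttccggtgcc
Imp4, chr1:34439696-34439725, plus strand: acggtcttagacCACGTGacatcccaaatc
Wdr43, chr17:71616220-71616249, plus strand: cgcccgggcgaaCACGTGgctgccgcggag
The motif starts at transcribed base 35 in Grwd1, 24 in Nle1 and 18 in Wdr43, and upstream at -60 in Nop2 and -121 in Imp4, counted from the start. A match describes these letters only, and no binding was measured here.

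In NRP KO Treg, the same comparison gave smaller mean differences and no gene past the threshold. Of the 46 genes, 44 had a negative mean, with a median of -0.19 (a change of -12.5%) against -0.02 over all genes. None passed limma's test, as was true of all 17097 genes (0.0% called, 1787 genes with an unadjusted p under 0.05), and 15 of the 46 had an unadjusted p under 0.05. Nop58, Imp4 and Rrs1 were lower in 8 of 8 NRP KO pairs, a pattern held by 1.66% of all genes, and 0 genes of the list were higher in all pairs (0.988% of all genes). By role, the NRP KO medians were -0.14 for RNA polymerase I, -0.19 for snoRNP, -0.11 for nucleolar, -0.21 for small subunit and -0.21 for large subunit genes.

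The smallest p-values in NRP KO Treg belonged to Rrp12, Pno1 and Rrs1. Rrp12 had 6.34, 6.61 and 6.84 (lowest, median and highest) with Sema4a-Ig, against 6.75, 6.98 and 7.25 with IgG1. Of the 8 pairs 7 were lower, and the mean difference was -0.39 ± 0.11 (limma, adjusted p = 0.378). Pno1, the partner of the nuclease Nob1 in finishing the small subunit RNA, differed by -0.34 ± 0.10, and Rrs1 by -0.26 ± 0.09. Some genes that fell in WT Treg were lower in only 4 of 8 NRP KO pairs. The dim probe set of Nle1 had a mean near 0 (-0.03 ± 0.15). Polr1b had -0.15 ± 0.11, close to the NRP KO median of the RNA polymerase I genes (-0.14). Wdr12 (-0.31 ± 0.14) and Bysl (-0.29 ± 0.11) kept negative means in 6 and 7 of 8 pairs. Myc had -0.03 ± 0.07.

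Whether the Sema4a-Ig effect differed between the genotypes was tested directly as NRP KO minus WT. The difference was positive, that is a smaller decrease in NRP KO, for 42 of 46 genes, with a median of 0.13 against 0.00191 over all genes. No gene of the 46 and no gene of the platform passed limma's test (0.0% called, 1015 genes with an unadjusted p under 0.05, 2 of them on the list). Nle1, with its dim probe set, had the largest difference, 0.61 ± 0.22 (limma, unadjusted p = 0.00955, adjusted p = 0.765), followed by Polr1b with 0.45 ± 0.16 (adjusted p = 0.791). Grwd1 had 0.26 ± 0.13 (adjusted p = 0.83). In 6 cases an NRP KO and a WT pair have neighbouring title codes, and in 6 of 6 the median of the 46 genes was lower in the WT pair. The gap was small in some, with -0.12 in NRP KO pair 4 and -0.14 in WT pair 4, and -0.10 and -0.13 in pairs 5. It was larger in pairs 3 (-0.62 and -0.72) and 7 (-0.00266 and -0.38). Outside these cases NRP KO pair 2 (-0.43) lay below WT pair 2 (-0.29), and NRP KO pair 1 (-0.16) above WT pair 1 (-0.67). With these 6 cases as blocks the median difference was 0.12 and 0 of the 46 genes passed (limma). A difference in response between the genotypes is thus not shown for any single gene of the 46.

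The genes moved together from pair to pair, and the size of the shift varied widely between pairs of one genotype. The median over the 46 genes was negative in 16 of 16 pairs. It ran from -0.62 to -0.00266 in the 8 NRP KO pairs (mean -0.19 ± 0.22, SD) and from -0.72 to -0.13 in the 8 WT pairs (mean -0.33 ± 0.24, SD). In NRP KO pairs 24 to 45 of the 46 genes were lower, and in WT pairs 37 to 46. Pairs with title codes under 60 had the larger shifts, with mean medians of -0.41 in 3 NRP KO pairs and -0.56 in 3 WT pairs, and those with codes over 60 had -0.06 in 5 NRP KO pairs and -0.20 in 5 WT pairs. What the codes stand for is not given. The spread of all genes was also wider in the pairs with codes under 60, for example an SD of 0.50 in WT pair 3 against 0.25 in WT pair 5.

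**Figure D2:**
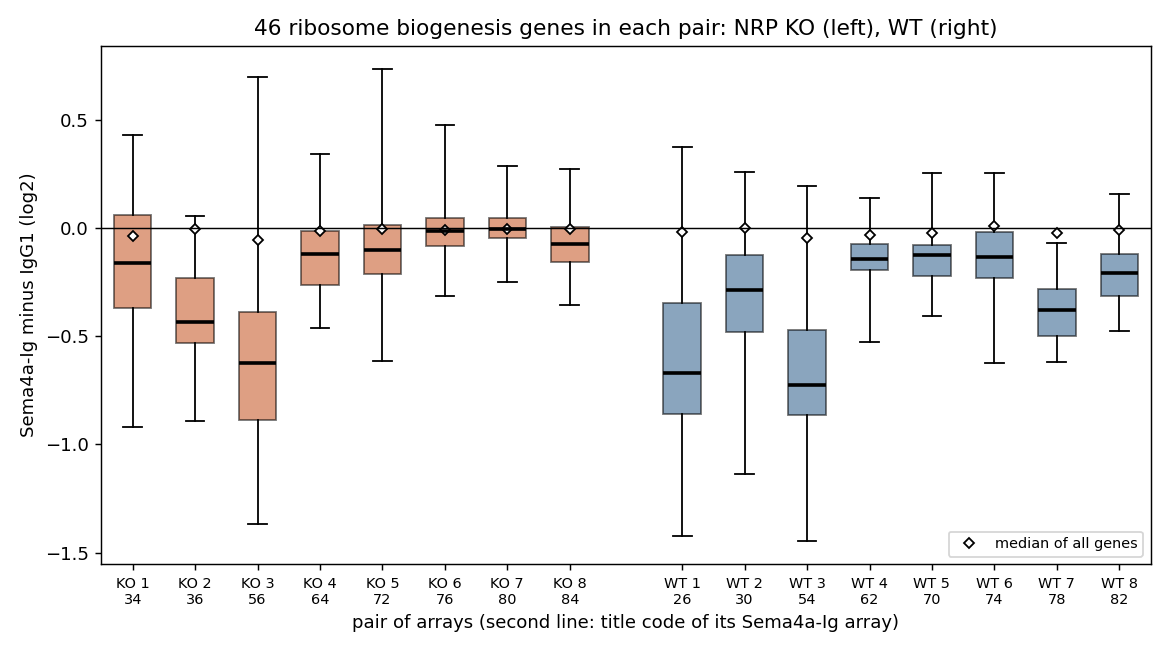
Sema4a-Ig minus IgG1 (log2) of the 46 genes in each of the 8 NRP KO pairs (left) and 8 WT pairs (right), with the title code under each pair. Boxes show the quartiles and median over the 46 genes, whiskers their full range, and diamonds the median of all genes. The black median lies below 0 in 16 of 16 pairs and is nearest to 0 in NRP KO pairs 6 and 7.

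With the mean of each genotype removed, the pairwise correlation over the 16 pairs averaged 0.48 between the 46 genes. It averaged 0.31 between 74 other ribosome biogenesis genes, 0.095 between 63 ribosomal protein genes and 0.00563 between all genes. These pairs share their arrays, so the values describe common movement on the same arrays. Nolc1 (0.95), Wdr12 (0.92), Nop14 (0.92) and Nop2 (0.91) followed the mean of the other genes most closely. The dim probe sets of Wdr75 (-0.10) and Ncl (-0.07) did not follow it. The direction did not rest on the choice of probe set: of 78 probe sets annotated to these genes alone, 73 were negative in NRP KO and 78 in WT.

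Related gene lists were compared to place this shift. Of 74 further ribosome biogenesis genes, 16 fell in WT Treg and 0 rose (median -0.14 in NRP KO and -0.23 in WT), with Dhx37 (-0.44), a processome helicase, and Nat10 (-0.42), which acetylates ribosomal RNA, among those that fell. The RNA exosome, which trims ribosomal RNA precursors, had 3 of 10 genes lower in WT, led by Exosc2 (-0.50). By contrast, of 63 genes for the proteins of the cytosolic ribosome itself only Rpl14 (-0.49) fell, and the median was -0.02 in NRP KO and 0.01 in WT. For RNA polymerase III, Polr3e (-0.42) fell and Maf1 (0.31), a repressor of this enzyme, rose among 11 genes. For translation factors Eef1e1 (-0.46) and Eif1a (-0.37) fell among 18, and for proliferation Aurkb (-0.52), Cdk1 (-0.41) and Rrm1 (-0.35) fell among 17. No gene of these lists passed in NRP KO.

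**Figure D3:**
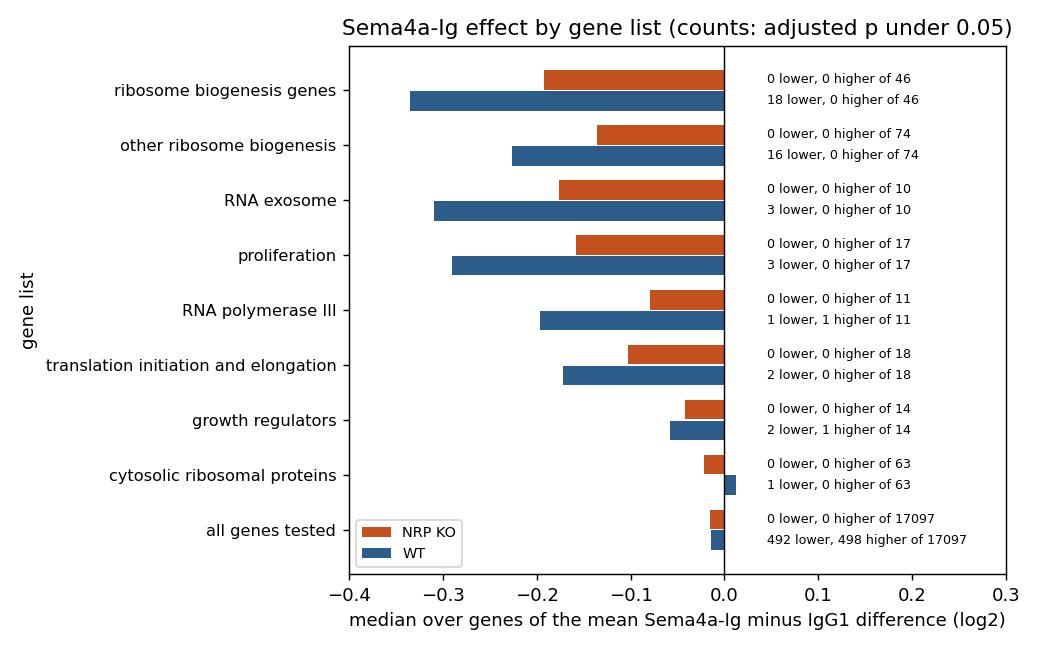
Median over each gene list of the mean Sema4a-Ig minus IgG1 difference (log2), in NRP KO Treg (upper bar) and WT Treg (lower bar), with the number of genes past limma's threshold at the right. The ribosome biogenesis genes have the most negative median in both genotypes of the 8 lists drawn, and cytosolic ribosomal protein genes lie near 0.

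Markers of myeloid cells were higher with Sema4a-Ig in 3 of 8 NRP KO pairs and 6 of 8 WT pairs by their mean, while the median of the ribosome biogenesis genes was lower in 16 of 16. In WT pairs 4 and 5 the marker means went the other way, with -0.23 and -0.06. The medians of the 46 genes there were -0.14 and -0.13, among the smaller shifts in WT. In WT pairs 1, 2 and 3 the marker means were 0.21, 0.17 and 0.43, with medians of -0.67, -0.29 and -0.72. In WT pairs 6, 7 and 8 they were 0.19, 0.62 and 0.42, with medians of -0.14, -0.38 and -0.21. The mean of 16 myeloid markers lay between 4.58 and 4.85 in NRP KO Treg with Sema4a-Ig and between 4.49 and 4.76 with IgG1. In WT Treg it lay between 4.55 and 4.98 with Sema4a-Ig and between 4.36 and 4.79 with IgG1. In WT, Lyz2 (0.81), Tyrobp (0.39) and Ctss (0.37) rose, and 8 of the 16 markers were at or below the highest control probe set in each group. With the myeloid difference of each pair as a covariate, the median of the 46 genes in WT was -0.26, and 0 of them and 17 of all genes passed. The mean of 10 markers of CD8 and NK cells was 4.76 with Sema4a-Ig and 4.90 with IgG1 in NRP KO Treg, and 4.77 with Sema4a-Ig and 4.89 with IgG1 in WT Treg. Of these, Nkg7 differed by -0.28 in NRP KO without passing and fell in WT (-0.52). The part of other cells in the shift of the ribosome biogenesis genes was not otherwise tested.

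The share of all genes past the threshold is not given for fits that leave out pairs, so their counts describe this list only. The count of 18 in WT depended on a few pairs. It was 2 without WT replicate 3, 5 without WT replicate 1 and 7 without WT replicate 7, and 0 within the 3 WT pairs with codes under 60 or the 5 with codes over 60 alone, while the median stayed between -0.57 and -0.20 under every alternative run.

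In the sorted cells, activated and resting Treg were compared to see how stimulation changed these genes. No ribosome biogenesis gene passed limma's test: 0 of 48, where 0.742% of all genes did, with 9 of the 48 and 2095 of all genes at an unadjusted p under 0.05. The median difference was 0.01, with 24 genes higher and 24 lower. RNA quality differed between these arrays: the signal of the 3′ probe set of Actb exceeded that of its 5′ probe set by more than 4 in 2 of 3 activated and 1 of 3 resting arrays. Within the class above 4, and likewise within the class below 4, 33 genes were higher in activated Treg and 15 lower, with medians of 0.13 and 0.22 against 0.04 and -0.06 over all genes. The class above 4 has only 1 resting array and the class below 4 only 1 activated array, and the genes share these arrays. These counts and medians thus carry no measure of spread. In the same comparison proliferation genes rose (7 of 17, median 1.51). Nhp2, a snoRNP protein outside the list, rose by 1.23 ± 0.16, the 1 of 82 further ribosome biogenesis genes that passed.

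The genes with the smallest p-values went in both directions. Tsr1, a maturation factor of the small subunit, had 10.64, 10.67 and 10.77 in activated Treg, against 10.15, 9.65 and 10.06 in resting Treg. The groups did not overlap, with a difference of 0.74 ± 0.17 (limma, adjusted p = 0.121). Rrp12 had 4.87, 5.30 and 5.52 in activated Treg, against 4.40, 4.45 and 3.97 in resting Treg, a difference of 0.96 ± 0.26 (limma, adjusted p = 0.168). Its probe set was dim, averaging 5.13 over the 8 arrays against a median of 5.76 over all genes. Noc2l went the other way, with 7.60, 8.23 and 8.32 in activated Treg, against 8.48, 8.98 and 9.31 in resting Treg, and -0.87 ± 0.26 (limma, adjusted p = 0.219). In all, 5 genes had every activated array above every resting array (6.03% of all genes) and 3 every activated array below (6.94%). By role, 10 of 15 small subunit genes had a positive difference and 12 of 15 large subunit genes a negative one. Within the RNA quality classes above and below 4, 11 of 15 small subunit genes were positive in each, and 8 and 7 of 15 large subunit genes were negative. The large subunit count was thus lower within the classes, each of which has only 1 array of a group. Polr1c (0.08), Fbl (0.03), Npm1 (0.34) and Rrs1 (0.09), with Tsr1 the brightest genes of their roles, did not pass.

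Myc had 8.31, 8.09 and 8.08 in activated Treg, 6.63, 6.78 and 4.80 in resting Treg, and 8.45 and 8.49 in conventional T cells. Activated Treg lay above resting Treg without overlap, but the difference of 2.09 ± 0.46 did not pass over all genes (limma, adjusted p = 0.1). Against conventional T cells, Myc in resting Treg fell by 2.40 ± 0.52 (limma, adjusted p = 0.0354).

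Resting Treg and conventional T cells, both unstimulated, were compared next. They differ in lineage and also in the CD45RB gate (low in Treg, high in conventional T cells), and these cannot be told apart. Ribosome biogenesis genes were mostly lower in resting Treg: 4 of 48 fell and 0 rose in limma's test, where 1.65% of all genes fell, 3.86% rose and 5.51% passed in either direction, and 40 of 48 differences were negative. The median was -0.53 against 0.00729 over all genes. In 27 of 48 genes every resting Treg array was below both conventional arrays, which held for 20.4% of all genes, and in 0 every one was above (21.6% of all genes). Markers of other cells differed too. Their list means in resting Treg and conventional T cells were 6.32 and 5.54 for B cells and 5.64 and 5.26 for myeloid cells. For dendritic cells and MHC class II they were 6.28 and 5.32, and for erythroid cells 4.63 and 4.61. CD8 and NK markers went the other way, with 5.29 and 6.05, and their brightest gene, Klrd1, had 7.30 and 12.03. Brightest in the other lists were Ighm for B cells (13.65 and 12.89) and Ctss for myeloid cells (12.67 and 12.72). For dendritic cells and MHC class II it was H2-Aa (9.07 and 6.44). The part of other cells in this comparison was not tested.

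Wdr12 had 7.97, 8.96 and 7.48 in resting Treg, against 10.49 and 10.46 in conventional T cells. All 3 Treg arrays were lower, and the mean fell by 2.33 ± 0.44, or 19.8% of the conventional level (limma, adjusted p = 0.0195). Rrp12 had 4.40, 4.45 and 3.97 in resting Treg, against 5.90 and 6.65 in conventional T cells, and fell by 2.01 ± 0.29 (limma, adjusted p = 0.00592). These were the largest differences of the list, that of Rrp12 from a dim probe set. Nle1 had 6.34, 6.10 and 6.67 in resting Treg, against 7.57 and 7.77 in conventional T cells, and fell by 1.30 ± 0.30. Nob1, the nuclease that makes the mature end of the small subunit RNA, had 7.55, 8.01 and 7.53, against 8.84 and 8.96, and fell by 1.20 ± 0.21. In both of these genes the Treg arrays again lay below the conventional arrays without overlap. Fbl (-0.15), Rrs1 (-0.20), Polr1c (-0.52), Npm1 (-0.59) and Tsr1 (-0.71) did not pass.

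Activated Treg and conventional T cells differ in lineage, in the CD45RB gate and in stimulation. These cannot be told apart in this comparison, which shares the conventional arrays with the previous one. Of 48 genes, 6 fell and 0 rose (3.77% of all genes fell, 5.93% rose and 9.7% passed in either direction), with a median of -0.47 against 0.02 over all genes and 39 negative differences. In 25 genes every activated array was below both conventional arrays (19.7% of all genes), and in 3, Ubtf, Noc4l and Rrp1b, every activated array was above (21.4%). In activated Treg the marker means were 6.24 for B cell, 6.15 for myeloid and 6.30 for dendritic and MHC class II genes. They were 5.24 for CD8 and NK genes and 4.61 for erythroid genes, and the part of other cells was not tested.

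Wdr12 again led, with 7.60, 7.76 and 8.60 in activated Treg, against 10.49 and 10.46 in conventional T cells, a decrease of 2.49 ± 0.44 (limma, adjusted p = 0.00983). Polr1a, the largest subunit of RNA polymerase I, had 6.74, 7.78 and 7.87, against 9.16 and 9.20, and fell by 1.72 ± 0.43 (limma, adjusted p = 0.041). Both conventional arrays were above every Treg array in these genes. Rrp9 fell by 1.61 ± 0.37, Nle1 by 1.36 ± 0.30, the processome gene Nop14 by 1.03 ± 0.21 and Nob1 by 0.91 ± 0.21. Fbl (-0.13), Rrs1 (-0.11), Npm1 (-0.25), Polr1c (-0.45) and Tsr1 (0.03) did not pass, and Myc had -0.31 ± 0.52 (limma, adjusted p = 0.825).

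**Figure D4:**
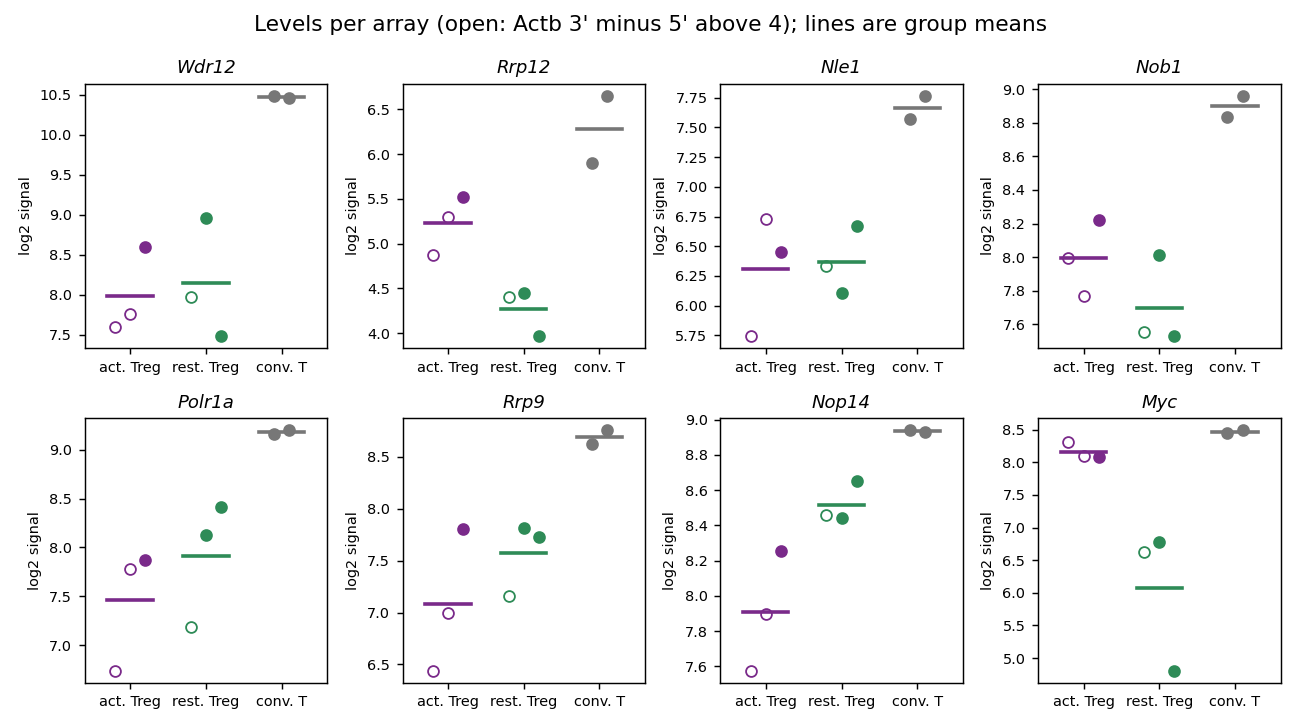
Log2 signal per array of 7 ribosome biogenesis genes that passed against conventional T cells in at least 1 comparison, and of Myc, in activated Treg, resting Treg and conventional T cells. Lines are group means, and open circles mark arrays with an Actb 3′ minus 5′ difference above 4. Both conventional arrays lie above every Treg array in all 8 panels.

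RNA quality moved with these groups. The Actb 3′ minus 5′ difference was 5.87, 6.17 and 2.31 in activated Treg, 5.90, 2.50 and 2.67 in resting Treg, and 1.24 and 1.54 in conventional T cells, where a larger gap goes with more degraded RNA or shorter labelled copies. The 3 Treg arrays above 4 had lower ribosome biogenesis signals than the 3 below 4, with a median of -0.37 against 0.01 over all genes, and 37 of 48 genes lower. In 17 genes every array of the first class was below every array of the second, which held for 14.3% of all genes. With the class as a block the median was 0.14 for activated against resting Treg, -0.42 for resting Treg against conventional T cells and -0.26 for activated Treg against conventional T cells. In the 5 arrays below 4 alone these medians were 0.22, -0.42 and -0.30. The conventional arrays had the lowest Actb values of all, so RNA quality cannot be fully told apart from lineage and CD45RB gate. For Gapdh the 3′ minus 5′ difference was 3.82, 4.33 and 3.08 in activated Treg and 3.69, 2.92 and 2.69 in resting Treg. In conventional T cells it was 2.71 and 3.05, so by Gapdh these arrays were not the lowest of all.

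**Figure D5:**
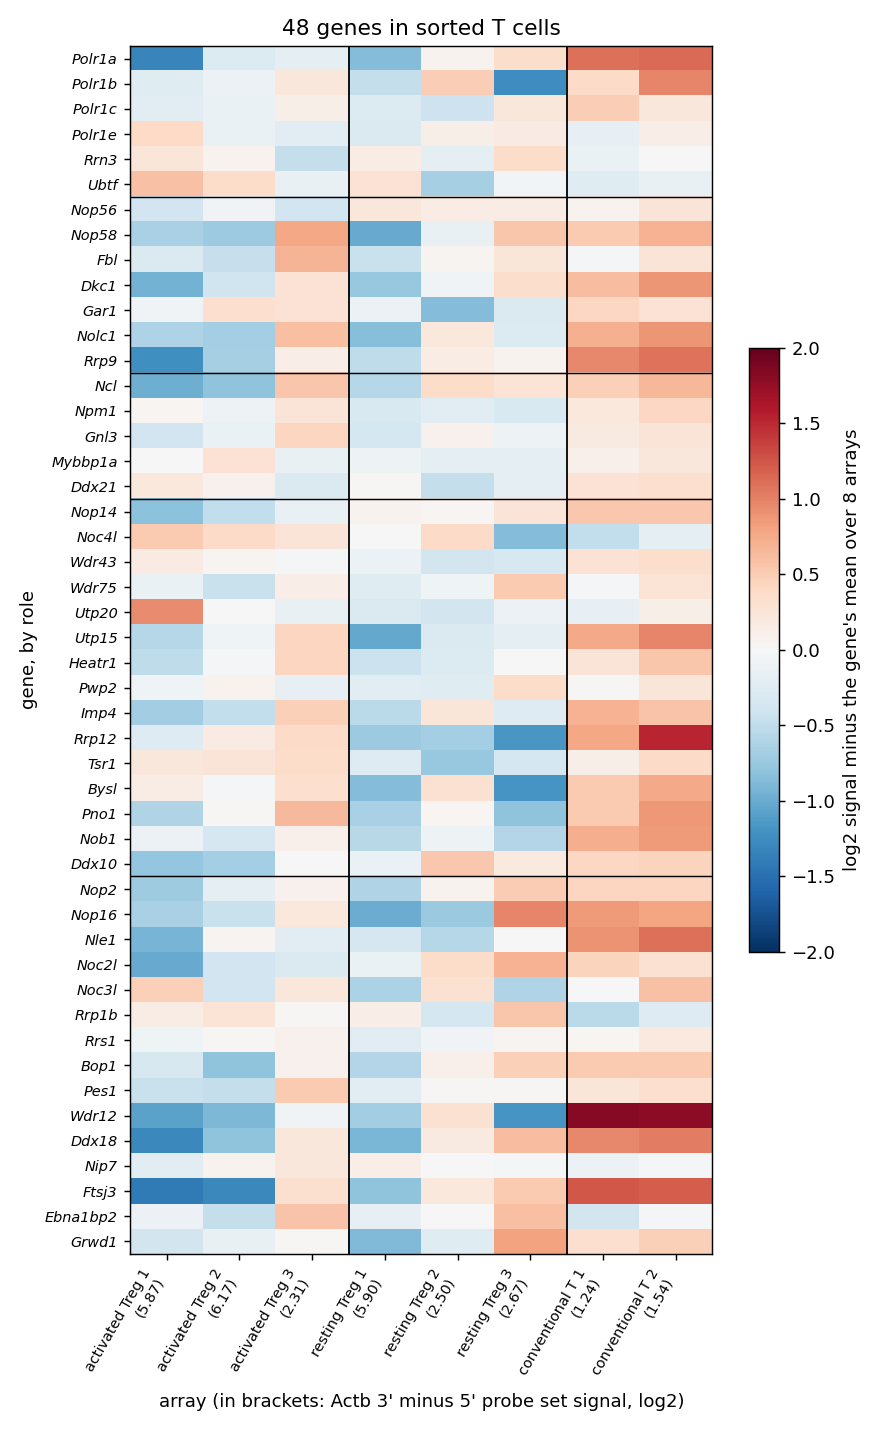
Log2 signal minus the gene's own mean over 8 arrays (colour) for the 48 genes measured in sorted cells, by role, in activated Treg, resting Treg and conventional T cells, with the Actb 3′ minus 5′ difference under each array. Both conventional arrays are mostly red, and the Treg arrays with differences of 5.87, 6.17 and 5.90 are mostly blue.

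The counts against conventional T cells rested on few arrays. For fits that leave out an array the share of all genes past the threshold is not given, so these counts describe the list only. For resting Treg the count of 4 was 2 without resting replicate 1, 1 without conventional replicate 1 and 0 without conventional replicate 2. For activated Treg the count of 6 was 3 without activated replicate 1, 2 without activated replicate 2, 15 without activated replicate 3 and 0 without either conventional array. Wdr12, Rrp12, Nle1 and Nob1 kept negative differences against conventional T cells in every fit run for resting Treg, and 80 of 98 probe sets annotated to the 48 genes were lower than in conventional T cells in resting Treg and also 80 of 98 in activated Treg.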

How the data were processed

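RNA of 40 samples was measured on Affymetrix arrays, 8 in the sorted cell and 32 in the ligand experiment. The deposited values are log2 signals per probe set, made by the authors with RMA and Partek 6.6, per the submitters' processing notes; no other step is stated. Arrays give no read depth, and their number limits the precision. Probe sets of 1 gene took their names from the platform's gene table, updated to RefSeq symbols: 34958 of 45101 in the sorted cells (932 had several genes, 9211 none) and 28898 of 45141 in the ligand experiment (551 and 15692).

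limma 3.58.1 in R 4.3.3 (lmFit and eBayes, two-sided) was fitted over all genes, with Benjamini-Hochberg adjustment over each comparison and a threshold of 0.05. The 8 sorted arrays entered 1 fit of 3 group means with 5 residual degrees of freedom. The 16 pair differences entered another, with a mean per genotype and 14 residual degrees of freedom. Neighbouring title codes give the pairing, and the identical pair means in the deposited values bear it out. The main fit therefore has the pair as replicate block.

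The genes, the roles and the other lists were chosen with earlier results of these data known, so they are no independent evidence of direction. In each comparison up to 12 genes past the threshold were named by size (the 3 with the smallest p where fewer than 3 passed), with Myc, the brightest gene of each role, and up to 4 called genes of each other list. Other genes in the text (Ubtf, Ncl, Wdr75, Pes1 and those named for overlap or correlation) were chosen after their values were seen. The fits were tested on simulated data. Alternatives covered probe set choice, dim genes, quantile normalization, array weights, the prior, RNA quality, myeloid markers, the pairing and left-out samples.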

Additional observations from a re-analysis of the deposited data

Results flagged for a closer look

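A sample far from the rest of its group was looked for in 35 sets of 8 pair differences, those of the genes named in the ligand experiment, of Myc and of the list's median. Noc2l stood apart in WT pair 2, at -1.14 against a range of -0.54 to -0.15 in the other 7 pairs, with a gap of 0.603 of the whole range. This pair holds the Sema4a-Ig array that is WT by its title and knockout by its genotype label. Imp4 stood apart in WT pair 3 (-0.85, a gap of 0.534 of the range) and Rrs1 in WT pair 1 (-0.86, a gap of 0.584). Myc stood apart in NRP KO pair 1, at 0.43, where the other 7 pairs were below 0, with a gap of 0.746 of the range. Chance alone puts about 1 in 20 such groups past the limit of Dixon's test, and 4 of 35 were.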

How the results depend on the processing

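Alternatives were run for the genes that passed, those named for the smallest p, the brightest gene of each role and Myc. Of the values without Myc, 836 kept direction and side of the threshold, 162 lost a call, 20 gained one and 31 changed sign. No gene that passed, or was named for its p, changed sign; those that did were Polr1c, Fbl, Rrs1 and Tsr1, in comparisons where they did not pass. The pair was a replicate block throughout. With no replicate block, which takes paired arrays as independent, 14 of 46 genes passed in NRP KO, 42 in WT and 2 in the difference between genotypes. Paired arrays mirror each other around a fixed mean, so this fit counts each pair difference as 2 independent values and understates the error. Its counts are therefore not read as calls.

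For the alternative fits, other than the myeloid covariate, the share of all genes past the threshold is not given. Their counts show how the calls on the list moved with the setting, and cannot be set against calls over all genes. In WT the count of 18 was 29 among brighter genes only, 30 with an intensity trend and robust prior, and 0 with the myeloid covariate, within codes over 60 and within codes under 60. Leaving out 1 replicate gave 2 to 19 in WT, 0 to 0 in NRP KO and 0 to 0 for the difference. In the sorted cells, array weights gave 3 genes for activated against resting Treg, 18 for resting Treg against conventional T cells and 26 for activated Treg against conventional T cells. Resting Treg against conventional T cells had 7 with the mean of all probe sets and 7 with the RNA quality block, and 0 to 5 without 1 replicate. Activated Treg against conventional T cells had 0 to 15 without 1 replicate, 1 in arrays of the low RNA quality class, and a median of -0.26 with the RNA quality block. The median for activated against resting Treg was 0.22 in the low class. Myc in NRP KO turned to 0.0031 with quantile normalization and 0.0618 in codes under 60. Its difference between genotypes ran from -0.0083, without NRP KO replicate 1, to 0.0854 without 1 replicate. With neighbouring codes as a block that difference was -0.0153 for Myc and -0.0726 for Rrs1. Rrs1 (0.00924 in the report's fit) also turned to -0.00217 with array weights, -0.00186 with the RNA quality covariate, -0.0598 with the myeloid covariate and -0.0513 in codes over 60, and ran from -0.0753 to 0.0591 without 1 replicate. For activated against resting Treg, the mean of all probe sets gave -0.0500 for Polr1c, -0.0463 for Fbl and -0.105 for Rrs1, and array weights -0.321 for Fbl. Without 1 replicate Polr1c ran from -0.0533 to 0.268 and Fbl from -0.327 to 0.242. For resting Treg against conventional T cells, Fbl was 0.122 with the RNA quality block and 0.0434 in the low class, and ran from -0.298 to 0.0434 without 1 replicate. For activated Treg against conventional T cells, Tsr1 was -0.498 with the mean of all probe sets. With the RNA quality block Fbl was 0.421, Tsr1 -0.028 and Rrs1 0.0065, and Fbl was 0.578 in the low class. Without 1 replicate Tsr1 ran from -0.0986 to 0.167 and Fbl from -0.48 to 0.0895. The cause was not tested in these cases. A lone remaining conventional array was taken to vary like the other groups. The alternatives with title codes, the neighbouring codes and with the low RNA quality class were chosen after seeing the data.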
